A study of Mus musculus with 3 samples.

Results

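The broadest open domains of mouse haematopoietic stem cells (HSCs) are described here. Open chromatin was read by ATAC, in which a transposase cuts accessible DNA and each pair of cuts leaves a fragment whose ends, the cut sites, are mapped. Chromosomes 1 to 19 were divided into tiles of 500 bp, and a tile was called open when it held a cut site in at least 10% of the cells used, which was 311 of 3108 cells. Neighbouring open tiles were merged into 13272 domains. The 300 longest of them were taken, and ties in length were settled by the number of cut sites. The region of chromosome 17 from 39.8 to 39.9 Mb was left out. The domains were selected on cut sites, so their lengths, their cut sites and the share of cells that held them are given as a description, without a test.

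The cells were long-term HSCs, sorted as LSK CD150+ CD48- CD34- cells from c-Kit-enriched bone marrow of wild-type female C57BL/6 mice (C57BL6/J in the methods of the study) aged 8 weeks, and the sources used here do not say how many mice. They were profiled by DOGMA-seq, which reads open chromatin, RNA and antibody tags from the same cells, and fragments of the 1 ATAC library were used. The call of cells was made by the authors jointly from the ATAC and RNA libraries. It held 41101867 unique fragments on chromosomes 1 to 19, of which the 3108 called cells with over 3000 fragments in peaks gave 36439576 fragments. With 1 library there is no replicate, so no difference was tested and every interval covers counting error only (exact 95% binomial, or normal for a difference of shares).

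Most open chromatin in a blood stem cell lies at gene promoters and at enhancers. Many promoters of mammals sit in CpG islands, stretches in which the dinucleotide CpG has not been lost to methylation, and these are open in nearly every cell type. A promoter usually has a stretch free of nucleosomes just before the transcript start, flanked by nucleosomes at regular places. Transposase fragments carry a record of this arrangement. Fragments shorter than the DNA wound around a nucleosome come from free DNA, those of about that length or more span a nucleosome, and longer ones span several.

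The sorted identity was checked at the starts of marker genes. A start was covered by an open tile for 3 of 9 HSC markers, beside 42.8% of all protein-coding genes, so the count by itself does not mark the cells as HSCs. The tile at the start of *Hlf* held a cut site in 36.7% of cells, that of *Meis1* in 23.9% and that of *Kit* in 22.3%, whereas *Slamf1*, which encodes the sorting marker CD150, reached 2.90% and *Ly6a*, which encodes Sca-1, 0.869%. Starts of *Cd48* and *Cd34*, whose proteins were sorted against, were at 0.933% and 5.245%. None of 6 T cell markers and none of 6 neutrophil markers had an open start, with highest values of 2.22% and 2.12%. The open starts among other markers were *Pax5* (21.2%) of 6 B cell genes, *Epor* (12.7%) of 5 erythroid genes, and *Pf4* (15.7%), *Gp1ba* (14.9%) and *Gp9* (10.5%) of 6 megakaryocyte genes. No marker start lay in any of the 300 longest domains.

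Promoter sequences from 7 of the 300 domains show the range of their base composition. Each is the stretch of 250 bases before an annotated start, free of annotated exons, from RefSeq's GRCm38.p6, written 5′ to 3′ on the strand of the gene, with every CpG in capitals. The first 3 belong to domains among the 15 longest, *Jun* to the immediate-early genes, and *Tle4* to the domain with the lowest share of nucleosome-length fragments.
Klf13, chr7:63938916-63939165, minus strand: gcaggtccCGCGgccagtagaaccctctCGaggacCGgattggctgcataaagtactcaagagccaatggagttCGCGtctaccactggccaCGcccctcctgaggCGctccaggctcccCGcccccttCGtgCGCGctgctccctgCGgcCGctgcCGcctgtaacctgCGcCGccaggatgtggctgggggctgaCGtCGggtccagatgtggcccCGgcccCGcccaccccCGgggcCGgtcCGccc
Crlf2, chr5:109558994-109559243, minus strand: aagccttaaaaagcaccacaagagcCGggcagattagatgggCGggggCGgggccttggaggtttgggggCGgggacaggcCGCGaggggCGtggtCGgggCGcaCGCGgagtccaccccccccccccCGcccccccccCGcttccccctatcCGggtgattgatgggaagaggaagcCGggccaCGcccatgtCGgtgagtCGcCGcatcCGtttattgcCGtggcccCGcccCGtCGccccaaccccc
Zswim6, chr13:107890065-107890314, minus strand: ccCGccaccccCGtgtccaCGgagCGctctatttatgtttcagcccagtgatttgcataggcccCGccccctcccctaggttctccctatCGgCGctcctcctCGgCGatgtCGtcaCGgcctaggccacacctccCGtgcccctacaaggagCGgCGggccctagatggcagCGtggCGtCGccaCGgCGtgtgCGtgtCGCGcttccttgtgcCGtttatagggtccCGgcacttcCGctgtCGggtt
Jun, chr4:95052223-95052472, minus strand: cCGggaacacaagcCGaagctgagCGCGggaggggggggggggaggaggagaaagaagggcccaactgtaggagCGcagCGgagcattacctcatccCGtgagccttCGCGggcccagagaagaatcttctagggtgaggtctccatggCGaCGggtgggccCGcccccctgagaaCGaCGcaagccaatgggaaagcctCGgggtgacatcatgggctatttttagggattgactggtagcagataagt
Tle4, chr19:14598184-14598433, minus strand: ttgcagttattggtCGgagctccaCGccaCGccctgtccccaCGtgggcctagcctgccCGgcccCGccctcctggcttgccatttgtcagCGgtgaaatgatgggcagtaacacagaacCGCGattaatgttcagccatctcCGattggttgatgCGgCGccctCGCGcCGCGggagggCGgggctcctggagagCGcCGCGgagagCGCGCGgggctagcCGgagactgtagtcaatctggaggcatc

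These 5 promoters held 15 to 26 CpGs and were 61.2% to 71.6% G or C. The letters GGGCGG, bound by factors of the KLF and SP families, occurred in each of them on either strand, 5 times in *Crlf2*, 3 times in *Klf13*, 2 times in *Tle4* and 1 time in *Zswim6* and *Jun*. Most fragments centred on them were short, that is shorter than the DNA wound around the core of 1 nucleosome, 84.4% at *Jun* and 93.6% at *Crlf2* as the lowest and highest of the 5. The following pair lay at the other end of the range. *Lyl1* encodes a basic helix-loop-helix factor of blood stem cells, and *Rn7sk* the 7SK RNA, made by RNA polymerase III, which holds the elongation factor P-TEFb inactive.
Lyl1, chr8:84701207-84701456, plus strand: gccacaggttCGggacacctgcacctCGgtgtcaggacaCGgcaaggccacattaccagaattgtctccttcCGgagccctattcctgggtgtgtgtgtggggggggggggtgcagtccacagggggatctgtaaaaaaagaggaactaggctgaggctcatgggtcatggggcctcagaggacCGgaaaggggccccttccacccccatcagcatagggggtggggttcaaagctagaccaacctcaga
Rn7sk, chr9:78175634-78175883, minus strand: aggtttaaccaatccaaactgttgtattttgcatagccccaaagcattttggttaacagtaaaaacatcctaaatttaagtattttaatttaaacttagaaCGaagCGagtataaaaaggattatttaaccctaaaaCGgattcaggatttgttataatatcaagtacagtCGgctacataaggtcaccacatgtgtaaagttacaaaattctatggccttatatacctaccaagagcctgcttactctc

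The *Lyl1* stretch held 5 CpGs and that of *Rn7sk* 4, and neither held GGGCGG. Of the fragments centred on the *Lyl1* stretch, 21.9% were nucleosome-length, that is of 1 to 2 times the DNA wound around a nucleosome core, and before *Rn7sk* this share was 65.4% of 1129 fragments, against 6.07% to 14.2% in the 5 CpG-rich promoters above. The *Rn7sk* stretch was 33.2% G or C and that of *Lyl1* 60%.

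The longest domain was 4500 bp long, at chr17:34118501-34123000 on mm10, and held starts of *Brd2*, which encodes a bromodomain protein that binds acetylated histones, and *H2-DMa*, which encodes a chaperone that loads peptides on MHC class II. Its 9 tiles were cut in 12.55%, 64.2%, 42.4%, 15.9%, 18.7%, 28.3%, 15.4%, 29.8% and 44.7% of cells, and the tiles just outside in 8.37% and 3.80%. The domain thus had separate high tiles near either end with lower ones between. A total of 17811 cut sites fell in it, 5.73 per cell.

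A further 6 domains were 3500 bp long. That of *Ppp2r3d*, a regulatory subunit of protein phosphatase 2A, at chr9:124422501-124426000, had the most cut sites of all 300 domains, 39941, or 12.85 per cell. In 7.98% of cells it held a site under more than 2 overlapping fragments, the second highest share of the set, and whether the locus has more copies than the reference shows was not tested. Its 7 tiles were cut in 51.6% to 77.3% of cells, so that it had no low tile, whereas the tiles on both sides were at 2.64% and 7.75%. The other domains of this length held the starts of *Ddit3*, a stress-induced transcription factor, together with *Mbd6*, of *Mnt*, a repressor that pairs with MAX, of the splicing regulator *Hnrnpl*, of *Zfp36l2*, which promotes decay of mRNAs with AU-rich elements, and of the zinc finger factor *Hivep2*. Their cut sites ranged from 7120 in *Hivep2* to 16990 in the *Ddit3* and *Mbd6* domain. The domains of *Crlf2*, a cytokine receptor subunit, *Jund*, a subunit of AP-1, the Krüppel-like factors *Klf13* and *Klf10*, and *Gtf2a1*, a subunit of TFIIA, completed the 12 longest at 3000 bp, with 12623 to 19149 cut sites. The highest was that of *Crlf2*, where 3.83% of cells had a site under more than 2 fragments and the number of copies was likewise not tested. *Jund* was the only gene of these 12 domains whose whole annotated body lay within its domain.

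**Figure D1:**
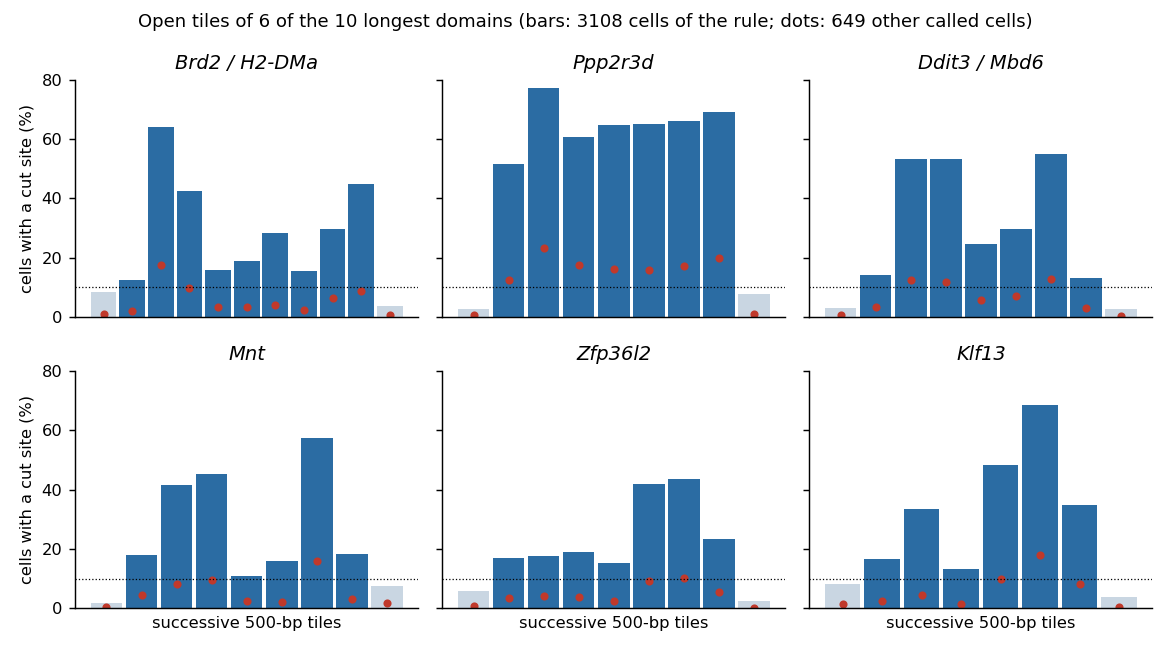
Percent of cells with a cut site in successive 500-bp tiles of 6 of the 10 longest domains, for the 3108 cells used by the rule (dark bars, with pale bars for the closed tile on each side) and for the 649 called cells not used by it (dots); the dotted line marks 10%. *Brd2* / *H2-DMa*, *Mnt* and *Klf13* have separate high tiles with lower ones between them, while all 7 tiles of *Ppp2r3d* are above 50% of cells.

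Across the 300 domains, length was 2000 bp in 207, 2500 bp in 69, 3000 bp in 17, 3500 bp in 6 and 4500 bp in 1. The median was 2000 bp, against 500 bp in the other 12972 domains. Together they covered 663000 bp, 0.0269% of the length of chromosomes 1 to 19, and held 2829266 cut sites, 3.88% of those of the cells used. A domain was cut in a median of 68.6% of cells, from 38.0% to 98.9%. Its strongest tile held a median of 45.5% of its cut sites. The limit of the set fell among domains of 2000 bp. Of 280 such domains 207 were kept, the last being that of *Elf2* with 5232 cut sites and that of *Otud1* with 5221, and the next in order, those of *Trim8* with 5213 and *Tldc1* with 5188, were not.

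Membership also turned on where tiles began. With tiles shifted by 250 bp, 184 of the 300 domains overlapped a domain among the 300 longest, and with a share of 20% of cells in place of 10%, 132 did. With each cell thinned to 3000 fragments, 106 did. Much of the set thus changed with the rule, and counts of genes hold for the set as drawn, while the share of domains with a promoter moved little (given with the alternatives).

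The 649 called cells with 3000 or fewer fragments in peaks took no part in the choice. In them, 3.88% of cut sites (interval 3.86% to 3.91%) fell in the 300 domains, as in the cells used, and in barcodes not called as cells 2.07%. All domains together took 43.9% of cut sites in the cells used, 42.7% in the 649 cells and 24.1% in uncalled barcodes, so the share of open signal that lay in the 300 domains was 8.85%, 9.10% and 8.62%. These shallower cells cut the median tile of the 300 domains in 4.93% of cells, a tile of the other domains in 3.24% and a closed tile next to one of the 300 in 0.462%. The order of the domains by cut sites was close in both groups of cells (Spearman rho of 0.97 over 300 domains, which share 1 library).

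A cell can lack a cut site in a domain that is open, so the counts per cell are of cuts and not of open domains. Of the 3108 cells, the median cell had a cut site in 212 of the 300 domains, and the 10th and 90th percentiles were 165 and 239. Over all cells this ranged from 105 to 300. They took a median of 4.01% of a cell's cut sites, between 3.44% and 4.58% at the same percentiles. The part of depth per cell in this range was not tested.

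Promoters made up most of the set. A protein-coding transcript start lay in 268 of the 300 domains, 89.3% (interval 85.3% to 92.6%), against 60.7% (59.9% to 61.6%) of the other domains. The share rose over the short lengths and then levelled off: it was 44.0% for domains of 500 bp, 77.6% for 1000 bp, 88.6% for 1500 bp, 88.2% for 2000 bp and 86.0% for 2500 bp and more. The 300 domains thus held a promoter about as often as domains of 1500 bp, whose interval was 86.7% to 90.3%. In all, 319 of 20722 protein-coding genes, 1.54%, had a start in these domains, and 42.8% had one in any open domain.

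**Figure D2:**
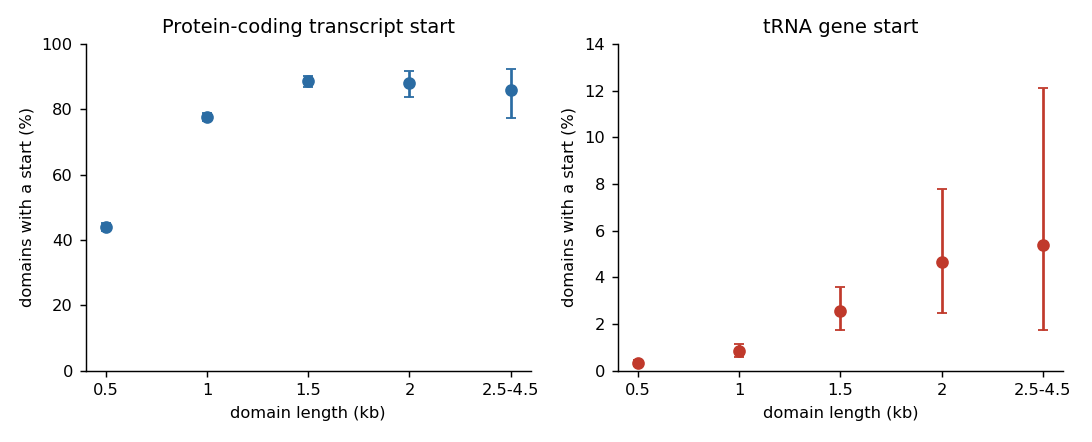
Percent of all 13272 open domains that hold a protein-coding transcript start (left) or the start of a tRNA gene (right), by domain length in kb; points are percentages and bars are exact 95% binomial intervals. Promoter share levels off from 1.5 kb (88.6%), whereas tRNA genes go from 0.317% of the shortest domains to 5.38% of those of 2.5 kb and more, with wide intervals at the longest.

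The domains extended on both sides of the start. In the 219 domains with starts of 1 protein-coding gene, the domain reached a median of 982 bp upstream of the first start and 1162 bp downstream, against 374 bp and 435 bp in 6968 other domains of that kind. The downstream side was the longer in 58.0% of the 219 and in 57.7% of the others. The strongest tile held a protein-coding start in 173 of the 268 domains with one, beside 467 of all 1326 tiles of the set. In 240 it held one or touched a tile that did. Most domains had 4 tiles, so many tiles hold or touch a start, and that share over all tiles was not computed. Length was thus not gained on only one side. The strongest tile held a start more often than tiles of the set in general.

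More than 1 gene started in 49 domains, 16.3%, against 6.99% of the other domains. Of 46 domains with a pair of genes whose strands could be compared, 35 had the pair head to head on opposite strands when each gene was placed by its first protein-coding transcript start in the domain, as in *Hnrnpa2b1* and *Cbx3*, 466 bp apart. This was 76.1%, against 69.2% of 885 pairs in other domains. Another 9 pairs were on opposite strands with genes that overlapped at their starts, and 2 were on the same strand, against 222 and 51 in other domains. Placed by the annotated start of the whole gene, 29 pairs were head to head, 63.0% against 58.1%. By that start 15 pairs overlapped, among them *Brd2* and *H2-DMa* or *Srsf2* and *Mfsd11*, against 320 in other domains. By transcript starts the median distance between head-to-head starts was 314 bp against 125 bp. By length, starts of more than 1 gene were in 3.47%, 10.5%, 13.2% and 9.59% of the other domains of 500, 1000, 1500 and 2000 bp, the last being 7 of 73. In the set they were in 17.9% of domains of 2000 bp, 13.04% of those of 2500 bp and 5.88% of those of 3000 bp, so the share did not rise steadily with length.

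The 319 genes were long or short much like other genes with open starts. Their median annotated length was 23196 bp, against 25218 bp for 8558 genes that start in another open domain and 12378 bp for genes that start in none. Genes under 5000 bp made up 13.8%, against 10.1% and 24.2%. In 6 cases the whole gene lay in its domain: *Jund*, the histone genes *Hist1h3a*, *Hist1h4a* and *Hist1h4h*, the ribosomal protein gene *Rpl41*, and *Naa38*.

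Genes of the immediate-early response and of AP-1, which are switched on within minutes of a stimulus, had the largest share in the set of the 13 lists. Of 34 measured genes 8 started in the 300 domains (23.5%), beside 1.54% of all protein-coding genes, and among genes with an open start 24.2% did, beside 3.59%. Over the 9 alternatives that redraw the domains the count ran from 4 to 12, or 15.4% to 36.4% of those open, while the share of all open genes ran from 2.675% to 9.54%. The lowest share came with each cell thinned to 3000 fragments, where 4 of 26 stood beside 9.54%. The HSC transcription factors (3 of 9) and the JAK-STAT genes (3 of 16) then had larger shares. The 8 were the AP-1 subunits *Jun*, *Jund* and *Fosl2*, the zinc finger factors *Egr1* and *Klf10*, *Ier2*, and the mRNA decay factors *Zfp36l1* and *Zfp36l2*. *Jund* had its start tile cut in 75.4% of cells and *Jun* in 53.25%. A strong start did not make a long domain in each case: *Fos*, *Fosb* and *Junb* were cut in 37.3%, 41.9% and 39.80% of cells in domains of 1000, 500 and 1000 bp.

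Of 38 transcription factors of HSCs, 32 had an open start and 4 of these (12.5%, beside 3.59% of all open genes) lay in the 300 domains: *Lyl1*, *Egr1*, *Prdm16*, needed to maintain stem cells, and *Bcl11a*, a repressor known from fetal globin. The count ran from 2 to 10 over the same alternatives, and was 3 of 9 open (33.3% beside 9.54%) after thinning. *Bcl11a* and *Prdm16* were broad but shallow, with 3821 and 4558 cut sites over 2500 bp, and their strongest tiles were cut in 19.05% and 24.1% of cells. *Egr1*, on the same length, had 14301 cut sites and *Lyl1* 12703. Other factors of the list sat in shorter domains, such as *Runx1* (32.3% of cells at the start), *Hlf*, *Meis1* and *Gata2* (13.9%), each of 1000 bp.

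The remaining lists are read beside the 3.59% of all genes with an open start that lay in the set. Of the 22 measured genes of JAK-STAT and cytokine signalling all had an open start and only *Socs1*, an inhibitor of the pathway, lay in a domain of the set (4.55%), and *Stat3*, at 76.6% of cells, was in one of 1500 bp. Of 26 chromatin regulators *Dnmt3a*, a DNA methyltransferase, and *Kmt2a*, a histone H3K4 methyltransferase, were in the set (8.70% of those open), of 24 cell cycle genes *Ccnd2*, which encodes cyclin D2 (4.76% of those open), and of 29 ribosomal protein genes *Rpl7* (3.45%). These shares rest on 1 or 2 genes each and moved with the rule: over the 9 alternatives the counts ran from 1 to 4 for JAK-STAT, 0 to 4 for chromatin regulators, 0 to 2 for the cell cycle and 0 to 1 for ribosomal proteins. At 5% of cells JAK-STAT reached 4 of 22 (18.2% beside 2.675% of all open genes). None of 33 surface proteins and receptors of HSCs, of which 18 had an open start, and none of 22 respiratory chain genes, of which 20 did, was in the set. The same held for the lists of erythroid and megakaryocyte (6 of 18 open), B and T lymphoid (3 of 22), granulocyte and monocyte (3 of 20), endothelial and stromal (2 of 16) and neuronal genes (0 of 16). With so few open genes in a list, 0 in the set is not read as a shortage.

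Families that share a symbol were counted after the genes of the domains had been seen, so they describe the set and no more. Of all protein-coding genes 1.54% were in the set, and of those with an open start 3.59%. The counts that follow are over family genes with an open start. Genes of heterogeneous nuclear ribonucleoproteins, which bind and splice nuclear RNA, were in it for 8 of 19, from *Hnrnpl* and *Hnrnpul1* to *Hnrnpa1*, *Hnrnpa2b1*, *Hnrnpdl*, *Hnrnph1*, *Hnrnph3* and *Hnrnpu*. The KMT2 and NSD histone methyltransferases had 4 of 7 (*Kmt2a*, *Kmt2c*, *Kmt2e* and *Nsd1*) and the ARID proteins 4 of 8 (*Arid1b*, *Arid2*, *Arid4a* and *Arid4b*). The Krüppel-like factors had 3 of 12 (*Klf10*, *Klf13* and *Klf16*) and the SR splicing factors 2 of 10 (*Srsf2* and *Srsf6*). Of 74 *Rpl* and *Rps* genes with an open start 2 were in it, 2.70% beside 3.59% of all open genes, and of 9 such *Hox* genes none was. Over the 9 alternatives that redraw the domains, the count of ribonucleoprotein genes ran from 7 to 11, that of Krüppel-like factors was 3 in each, that of KMT2 and NSD genes ran from 1 to 4, that of ARID genes from 0 to 4 and that of SR factors from 0 to 3, while the share of all open genes ran over the range given above.

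In 32 domains no protein-coding start was annotated by GENCODE. A non-coding or other start lay in 15 of them, and 4 were within 1000 bp of a protein-coding start. The longest, 3000 bp at chr13:107888501-107891500, held the start of *Zswim6*, which GENCODE vM21 lists as a processed transcript and RefSeq as protein-coding, and it was cut in 79.9% of cells. The next, also 3000 bp, at chr12:111944001-111947000, held the start of the long non-coding RNA *5033406O09Rik* and had a CpG ratio of 0.219, among the lowest of the set. The long non-coding RNAs *Neat1*, which builds paraspeckles, and *Malat1*, found in nuclear speckles, each had a domain, at chr19:5844501-5847000 and chr19:5802001-5804000, 40500 bp apart. They were cut in 84.3% and 70.3% of cells.

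Other members without a protein-coding start were of different kinds. The domain at chr9:107981501-107984000 held starts of *Gm20661* and of a transcript of *Uba7* and had the lowest CpG ratio of the set, 0.183. That at chr12:52602501-52605000 held the small nuclear RNA (snRNA) genes *Gm23296* and *Gm24859*, and that at chr19:23134001-23136500 the non-coding *2410080I02Rik*, 4726 bp from *Klf9*. A domain of 2500 bp at chr8:84703501-84706000 lay 1500 bp beyond that of *Lyl1*. A second domain of *Mnt*, 2000 bp at chr11:74837501-74839500, lay within the gene 4500 bp from the first. By RefSeq, 20 of the 32 held the start of some gene, 8 lay inside a gene without its start and 4 lay outside genes.

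Transfer RNA genes, read by RNA polymerase III, were also more frequent in longer domains. A tRNA gene of RefSeq started in 13 of the 300 domains (4.33%), against 98 of the other 12972 (0.756%). Of 378 tRNA genes 29 were in the set, and 165 started in any open domain. Of protein-coding genes 1.54% were in the set, and 3.59% of those with an open start. The 29 tRNA genes shared 13 domains, so they are not separate counts. Over lengths of 500, 1000, 1500, 2000 and 2500 bp or more, the density of tRNA genes was 6.62, 10.4, 30.8, 39.3 and 52.2 per Mb of domain. Over the same lengths the density of protein-coding genes fell from 951 to 883, 681, 523 and 370 per Mb. In 5 domains the tRNA genes stood without a protein-coding start: near *Hfe2* at chr3:96499501-96502000 (4 genes), near *Rnase4* at chr14:51088501-51091000 (3 genes), near *Plxdc1* at chr11:97987501-97989500 (2 genes), and near *Aurkb* and *Borcs6* on chromosome 11 (4 genes each), 20000 bp apart.

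The domains were rich in G and C. Their median was 62.1% G or C, from 44.4% to 78%, against 58.9% in the other domains. The CpG ratio, which is the number of CpGs over that expected from the counts of C and G, had a median of 0.796 against 0.702, and 272 of 300 domains (90.7%) were above 0.6, against 61.9%. By length, other domains of 500 bp had medians of 56.8% G or C and 0.565, with 47.1% above 0.6. Those of 1500 bp had 61.9%, 0.807 and 88.8%, so the set was close to them in all 3 values. Among domains with a protein-coding start the medians were 0.807 in the set and 0.803 outside it, whereas among those without one they were 0.676 and 0.337. The medians were thus close where a start was annotated and apart where none was.

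Short motifs were counted in tiles on either strand, and motifs may overlap each other. In 1326 tiles of the set, 74.4% held GGGCGG (KLF/SP), against 63.3% of 20400 tiles of other domains, 21.2% of closed tiles next to the set and 4.43% of all closed tiles. Tiles of the set with a protein-coding start held it in 85.7% and those without in 68.3%, against 82.0% and 47.4% in other domains. The letters AGGGGGC (part of the CTCF motif) were in 25.2% against 21.0%, CCAAT (NFY) in 38.5% against 41.9%, GCATGCGC (NRF1) in 3.92% against 4.53%, and TGACGTCA (CRE) in 3.47% against 2.78%. The ETS letters CGGAAG were in 29.5% against 31.8% of tiles of other domains, but the order differed with the start: they were in 33.8% against 42.6% of tiles with a protein-coding start and in 27.1% against 22.6% of those without. The order also turned for NRF1, with 5.567% against 6.625% and 3.027% against 2.742%. For CRE these shares were 4.069% against 4.165% and 3.143% against 1.598%. For the RUNX, SPI1 and GATA motifs of blood lineage factors, the gap between the set and other domains was wider in tiles without a start. TGTGGT (RUNX) was in 16.3% against 16.5% of tiles with a start and in 18.3% against 28.9% of those without. AGGAAGT (SPI1) was in 8.35% against 9.93% and in 10.7% against 15.9%. The GATA letters AGATAA were in 6.64% against 7.56% and in 9.55% against 16.2%. For AP-1, TGANTCA was in 5.78% against 5.43% and in 7.92% against 12.4%. Base composition was not matched between these tiles, and a match of letters is not a bound site.

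In promoter windows of 250 bases before the start, 371 windows of 289 genes lay wholly in the set. They held a median of 23 CpGs, against 20 in 6794 windows in other open domains and 4 in 24231 windows in none. GGGCGG was in 73.6%, 70.5% and 21.9% of them, and in 33.0% of all 31396 windows. AGATAA was in 4.04% of the windows in the set and 3.56% of those in other open domains, and TGANTCA in 3.504% and 2.81%. The promoters of the longest domains thus had about the CpG content of other open promoters, as printed above for *Klf13*, *Crlf2* and *Zswim6*, and *Lyl1* with 5 CpGs lay under their lower quartile of 16.

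Fragment lengths in the set were close to those of other open chromatin and unlike those outside it. Of 1419669 fragments centred in the 300 domains, 59.3% were short, 24.85% (interval 24.78% to 24.92%) were nucleosome-length and 15.9% were longer. In other domains these shares were 62.6%, 24.29% (24.26% to 24.31%) and 13.1%, and outside all domains 32.3%, 38.6% and 29.1%. Nucleosome-length fragments thus differed by 0.56 percentage points (0.486 to 0.634 by counting error), a small difference whose sign turned under 4 alternatives, and longer fragments by a wider margin. Both gaps varied with the length of the other domains. Those of 500, 1000 and 1500 bp had 23.2%, 24.7% and 24.5% nucleosome-length fragments, and 10.4%, 13.5% and 14.7% longer ones. The set was thus nearer to those of 1000 and 1500 bp than to those of 500 bp. Median fragment length was 109 bp in the set, 98 bp in other domains and 194 bp outside. In the 649 cells that the rule did not use, 24.7% were nucleosome-length in the set and 24.2% in other domains, with overlapping intervals of 24.28% to 25.04% and 24.1% to 24.3%.

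**Figure D3:**
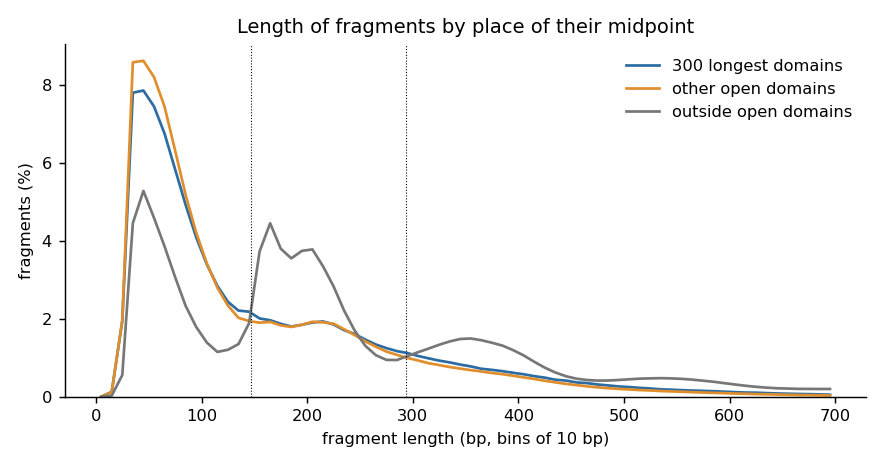
Percent of fragments by length in bins of 10 bp, for fragments of the 3108 cells centred in the 300 longest domains, in the other open domains and outside open domains; dotted lines mark the limits of the nucleosome-length class, 1 and 2 times the DNA of a nucleosome core. The curves of both kinds of domain peak at 40 to 50 bp and nearly coincide between the dotted lines, while fragments outside have further maxima near the length of 1 nucleosome.

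Domains of equal length differed more. The 73 domains of 2000 bp that fell below the limit had 27.5% nucleosome-length and 50.8% short fragments, against 24.4% and 60.5% in the 207 of that length that were kept. Cut sites separate these by construction. Over the 300 domains, the nucleosome-length share went down with cut sites per kb (Spearman rho of -0.41, with both read from the same fragments), and it did not move with the CpG ratio (rho of 0.0103).

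Within the domains, the length of fragments changed with place. In the strongest tile of each domain 67.2% of fragments were short and 22.7% nucleosome-length. In the other tiles at an edge these shares were 54.9% and 27.1%, in inner tiles 50.2% and 26.6%, and in the closed tiles next to the domain 29.0% and 33.8%. Longer fragments made up 10.2% of the strongest tiles and 23.2% of the inner ones. Inner tiles were thus crossed by long fragments more often than edges were, which held 18.1%.

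Around the starts of the 219 domains with 1 gene, fragments were densest in the 100 bp before the start, with 491 per domain against 319 in the 6968 other domains. At 1000 to 1100 bp downstream there were 99.0 against 11.3, and at the same distance upstream, from -1100 to -1000 bp, 69.2 against 6.88. These counts follow from the choice of long domains with many cut sites and are given as a description. In the 100 bp before the start the nucleosome-length share was lowest, 15.2% in the set and 11.95% outside. It was highest from 100 to 200 bp after the start, the place of the first nucleosome of a gene, at 33.8% in the set and 43.2% in the others. From 1000 to 1500 bp downstream it lay between 23.8% and 29.5% in the set and between 33.2% and 34.9% in the others, whose domains had mostly ended there.

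**Figure D4:**
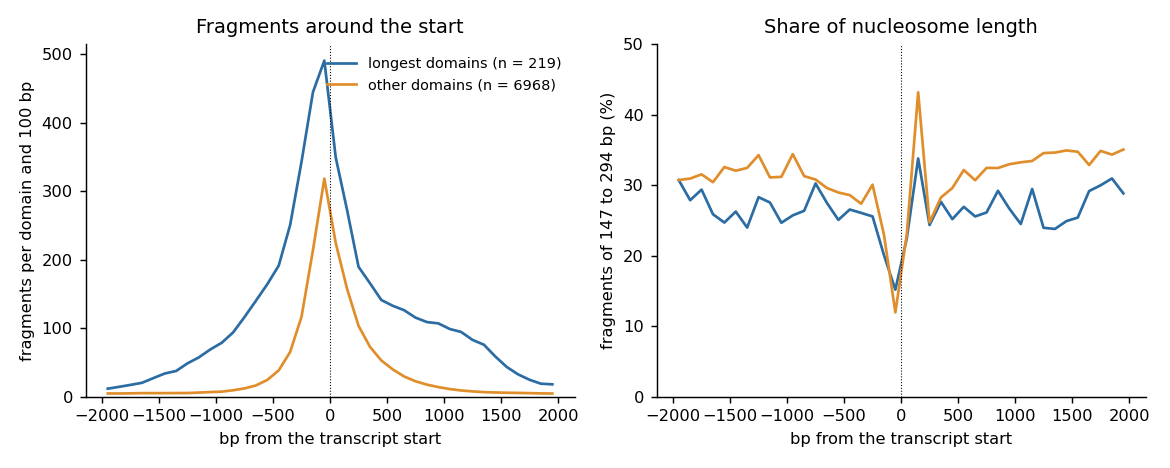
Fragments per domain in bins of 100 bp (left) and percent of them of nucleosome length (right), by distance of the midpoint from the first protein-coding start, positive downstream, for domains with starts of 1 gene. The longest domains were chosen for length and so keep signal beyond 1000 bp on both sides. Their peak of nucleosome-length fragments just after the start is 33.8%, against 43.2% in other domains.

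Single domains ranged widely in this share, from 16.9% to 43.8%, each resting on at least 1725 fragments. The 5 lowest were *Tle4*, a Groucho corepressor, and *Gadd45b*, a stress response gene, both at 16.9%, *Ypel5* at 17.3%, *Dazap2* at 17.4% and *Rrbp1*, a ribosome-binding protein, at 17.7%, with intervals of about 1 point on each side. Short fragments were 68.2% to 74.3% of these domains. The 5 highest were that of *Rn7sk* (43.8%, 41.9% to 45.6%), that shared by *Rdh10* and *Rpl7* (39.6%), that of *Eapp* with the snRNA gene *Gm22513* (38.6%), that of the snRNA genes *Gm24265* and *Gm24407* (38.2%), and that of *Gm23296* and *Gm24859* (37.3%). A gene for a small nuclear RNA or 7SK was therefore in 4 of the 5 highest.

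All 5 domains with an annotated snRNA gene were high, between 35.1% and 38.6%, beside a median of 24.98% over the 300. This was noticed in the values and then looked at in other domains, which the choice of members had left aside. There, 21 domains with an snRNA gene had a median of 36.1% (9.36% to 49.7%), beside 24.1% over all 12972. In the 250 bp before the start the contrast was greater. The 7 snRNA genes of the set had 48.45% to 61.6% nucleosome-length fragments there (median 58.4%), and *Rn7sk* 65.4%, whereas 312 protein-coding genes of the set had a median of 20.2% (6.07% to 50.3%) and 29 tRNA genes 29.9% (9.57% to 55.99%). In other domains 19 snRNA genes had a median of 58.6%, from 6.06% to 72.0%, and 8388 protein-coding genes 18.3%, from 3.31% to 72.0%. The medians for snRNA starts were thus higher than those for protein-coding starts in both sets of domains, and the ranges overlapped. Genes for snRNAs have near-identical copies elsewhere, and fragments that could have come from either were not examined.

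**Figure D5:**
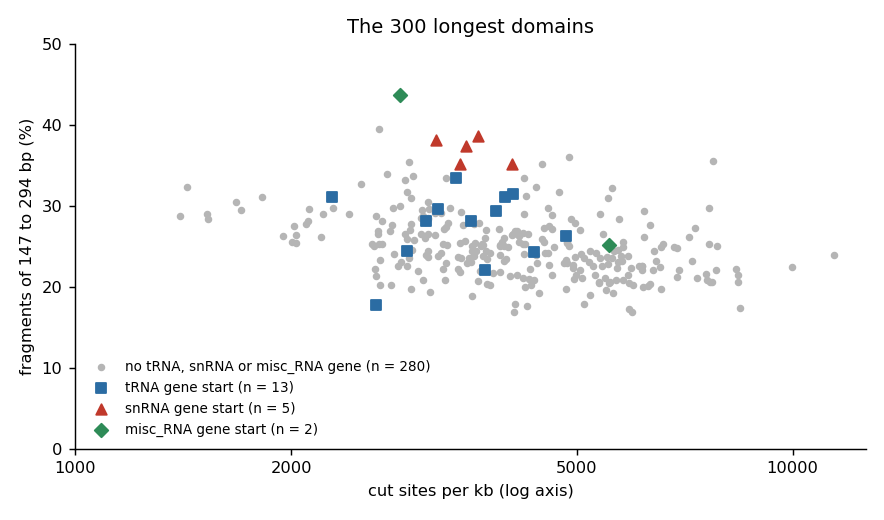
Percent of fragments of nucleosome length in each of the 300 longest domains, against its cut sites per kb (log axis), with domains that hold starts of tRNA, snRNA or misc_RNA genes marked. The snRNA domains (triangles) lie between 35.1% and 38.6% and *Rn7sk* (upper diamond) at 43.8%, above most other domains of like cut site density, and tRNA domains (squares) spread from 17.8% to 33.5%.

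A nucleus with a pair of copies of a site can show up to 2 overlapping fragments there. A median of 1.22% of cells per domain had more than 2, and in 1 of the 300 domains, that of 2500 bp at chr19:61265001-61267500, 29569 bp from *Gm21060*, 35.2% of cells did. In 10 of the other domains this share was over 10%. This domain had no annotated start, 35.5% nucleosome-length fragments and a CpG ratio of 0.396. The *Ppp2r3d* domain, with the most cut sites per cell, followed at 7.98%, and the next were those of *Csnk1g2* at 5.18% and *Dazap2* at 4.83%. The part of such stacked fragments in the cut sites of these domains was not tested.

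The 300 domains lay on all 19 chromosomes. Chromosome 11 held 38 of them, 0.311 per Mb, chromosome 19 had 0.277 per Mb and chromosome 6 the fewest per Mb, 0.0601. As a share of a chromosome's open domains they were between 1.32% on chromosome 2 and 3.46% on chromosome 19. The nearest open domain of any length was a median of 25500 bp away, against 21500 bp for the other domains. It lay within 1000 bp for 6.67% and 6.21% of them. The median distance to the nearest other domain of the set was 1161500 bp, and the distance under random placement was not computed. Within 50000 bp lay 16 pairs of neighbours, such as *Ddx5* and *Polg2* on chromosome 11, 7000 bp apart, and *Ier2* and *Lyl1* on chromosome 8, 35000 bp apart.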

How the data were processed

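Per the file headers, the authors mapped reads with Cell Ranger ARC 2.0.2 on the 10x mm10 reference and deposited the position of each unique fragment, collapsed from duplicate read pairs, with the count of read pairs behind it. They also deposited counts of fragments and of fragments in peaks per barcode, and which of 605049 barcodes were called as cells. No value was normalized. The antibody tags were not used here, and RNA levels were not used here.

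Cells were called barcodes with over 3000 fragments in peaks. A cut site was either end of a fragment, and a fragment belonged to the domain that held its midpoint. Short fragments were below the length of DNA wound around a nucleosome core, and nucleosome-length ones were of 1 to 2 times that length, limits included. Genes came from GENCODE vM21 (a promoter is a start of a protein-coding transcript), tRNA genes, promoter windows and sequence from RefSeq GRCm38.p6, the build of the files: no fragment ended beyond a chromosome. Extra fragments per cell were found from sites under more than 2 overlapping fragments, and no doublet caller was run. Python 3.11.15 was used with numpy 2.4.6, scipy 1.17.1, pandas 2.3.3, numba 0.67.0 and matplotlib 3.10.9, and the steps were tested on simulated domains. Cells of 1 library are not replicates, so no test was made. Intervals are exact 95% binomial intervals, except for the difference of shares, which has a normal one. Depth per cell sets which tiles reach 10% of cells.

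The members, the 13 gene lists and the rules were chosen with earlier results of these data known. Named were the 12 longest domains, the 8 longest without a protein-coding start, the 5 highest and 5 lowest in nucleosome-length fragments among those with at least 500 fragments, list genes in a member, cell type markers and ranks 299 to 302. Gene families, small RNA genes, head-to-head pairs, whole genes, neighbours and other genes named were chosen after their values were seen. Upstream windows with under 100 fragments were left out. Counts of list genes under the alternatives, and pairs by gene start, were added after the data were seen. Alternatives changed the share of cells, the cells, the tiles, merging, depth, fragments, promoter definition, number of domains, length class and comparison.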

Additional observations from a re-analysis of the deposited data

How the results depend on the processing

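The percent of domains with a protein-coding start (89.3%) stayed within its interval under 12 of 14 alternatives, and was 81.3% when only the start of the gene was used and 94.3% with starts of all transcripts of any gene type. The median length of 2000 bp stayed within 1.5 times under 8 of 9 alternatives and was 1000 bp with each cell thinned to 3000 fragments, where 3522 domains were left.

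The nucleosome-length share of 24.85% was 25.3% with a share of cells of 5% (25.25% for the 100 longest), 24.11% for the 1000 longest, 24.77% with both ends inside the domain, 12.33% for a narrower length class that starts at 180 bp, 24.16% at 20% of cells, 24.5% in all called cells, 24.95% with tiles shifted by 250 bp, 24.73% when merging across 1 missing tile, 22.22% after thinning and 26.31% with fragments of at least 2 read pairs. The difference from other domains, 0.56 points, reversed to -0.2957 for the 1000 longest, -0.01886 for that narrower class, -0.186 at 5% of cells and -0.04364 with at least 2 read pairs. It was 0.9459 for the 100 longest, 1.508 with both ends inside, 1.354 at 20% of cells, 0.4746 in all called cells, 0.642 with shifted tiles and 0.4206 when merging across 1 missing tile. The causes were not tested. All the cells used also had over 15% of fragments in peaks, so that alternative changed nothing. No paired analysis was possible because there is 1 library, and no replicate could be left out.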
